A study of Mus musculus with 12 samples.

Results

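The comparison described here is between normal adjacent lung of mice labelled HDM, which the series title spells out as house dust mite, and normal adjacent lung labelled VEH, an abbreviation the labels leave unexplained. Its members are the 6 normal lung libraries of the 12 in the series, 3 per treatment, taken by their labelled tissue and treatment. The other 6 libraries came from dissected lung tumours labelled LLC, 3 per treatment, so every normal library came from lung next to a tumour and the series holds no lung from tumour-free mice. Tissue was cut out under a microscope, frozen and divided into pieces of about 1 mg, so each library samples a small piece of lung. The labels give no strain, age, sex, dose or duration for the animals, call the exposure chronic, and assign all libraries the same batch. They also do not say that replicates came from separate animals, so every p-value below measures only the spread between these libraries.

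House dust mite is a common indoor allergen. In sensitised lung, its classical response starts with epithelial alarmins such as IL-33 and TSLP, runs through the type 2 cytokines IL-4, IL-5 and IL-13, and ends in eosinophil influx, alternatively activated macrophages, IgE and IgG1 antibody, and mucus production by goblet cells. The question set by the design is whether chronic exposure left such changes, or others, in the lung tissue beside the tumours.

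The normal libraries held between 25453248 and 32765364 counts. Lung identity was clear in all 6, with the club cell gene Scgb1a1 or the type 2 pneumocyte gene Sftpc as the most abundant transcript. Y-linked Ddx3y lay between 50.5 and 70.6 CPM (normalised read counts, scaled to library size by TMM) and Xist did not exceed 3.68 CPM in any of them. Mitochondrial transcripts took 5.11%, 2.46% and 3.60% of counts in VEH replicates 1 to 3 and 2.15%, 1.90% and 3.50% in HDM replicates 1 to 3. The ranges overlapped and the group means, 3.73 ± 1.33% and 2.52 ± 0.86% (SD, n = 3 each), gave p = 0.2 in a two-sided exact permutation test, whose smallest possible p with 3 against 3 is 0.1.

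A conflict within the labels bears on the whole comparison. The names begin with a code, 6 codes in all, and every code is borne by 1 lung and 1 tumour library. In 4 of the 6 the paired libraries have the same treatment. The code, here called the prefix, of VEH replicate 2 is shared with an HDM tumour, however, and that of HDM replicate 3 with a VEH tumour. If the prefix marks an animal, the treatment of these 2 normal libraries or of their tumours is in doubt, and the labels do not settle which. The treatments were kept as labelled, and results are given with all 6 libraries and without those 2, which leaves 2 against 2. Library names also end in H1 (VEH replicate 1 and HDM replicate 3) or H2 (the other 4), and the labels do not explain the suffix.

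The libraries did not separate by treatment. Over the 1000 most variable genes, principal component 1 (61.7% of variance) placed VEH replicates 1 and 3 with HDM replicate 3 on its negative side, at scores of -56.9, -45.6 and -41.6. VEH replicate 2 and HDM replicates 1 and 2 lay on the positive side, at 51.4, 54.4 and 38.3. Immunoglobulin genes had the heaviest weights on this axis, led by Ighg1, Ighg2c and kappa and heavy chain variable segments. Among all pairs of normal libraries, VEH replicate 1 and HDM replicate 3 were nearest to each other, with a root mean square log2 difference of 0.763, and VEH replicates 1 and 2 were farthest apart, at 1.29. By the same measure VEH replicate 2 lay nearer to HDM replicates 1 and 2 than to either other VEH library, and HDM replicate 3 nearer to VEH replicates 1 and 3 than to either other HDM library.

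**Figure D1:**
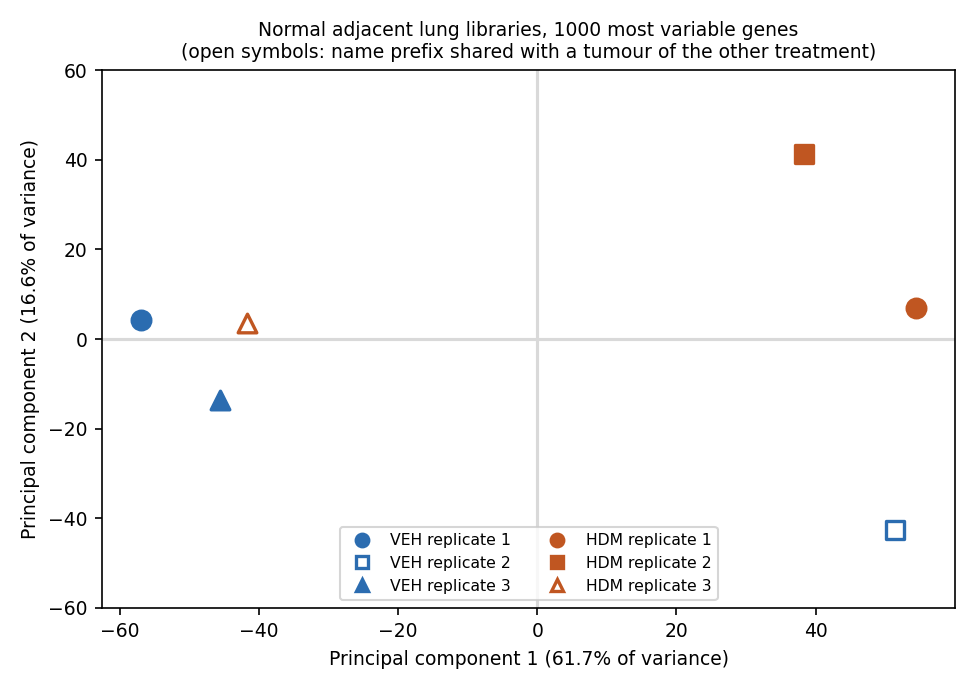
Principal component scores of the 6 normal lung libraries over the 1000 most variable genes, with the share of variance on each axis. Blue symbols are VEH and orange symbols HDM, and open symbols mark the 2 libraries whose prefix conflicts with their treatment; each open symbol sits on the same side of component 1 as the filled symbols of the other treatment.

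With all 6 libraries, no gene passed the test. In edgeR's quasi-likelihood fit, 0 of 22190 genes (0%) reached a Benjamini-Hochberg adjusted p of 0.05, the smallest adjusted p was 0.801, and 1230 genes (5.54%) had an unadjusted p below 0.05, 427 of them higher (1.92%) and 803 lower (3.62%) under HDM. limma-voom with quality weights also called 0 genes, and DESeq2's Wald test called 43 of 20854 (0.206%), 11 higher and 32 lower. The 3 HDM and 3 VEH libraries did not overlap for 2290 genes (10.3%), with HDM above VEH in 991 (4.47%) and below in 1299 (5.85%). The precision was limited: the median half-width of the 95% interval was 0.86 log2 units, and the interval lay within a 2-fold change in either direction for 9605 genes (43.3%). Without the 2 libraries of conflicting prefix, edgeR called 39 of 22733 genes (0.172%), 36 higher (0.158%) and 3 lower (0.0132%), and 3375 (14.8%) had an unadjusted p below 0.05, 1967 of them higher (8.65%) and 1408 lower (6.19%). Leaving out any further library of these 4 brought the 39 down to 2 (VEH replicate 1), 1 (VEH replicate 3), 1 (HDM replicate 1) or 24 (HDM replicate 2). Differences below are log2 HDM minus VEH with standard error, and none given for all 6 libraries passed the edgeR adjustment. Gene groups are described by counts and medians, beside a median over all genes of -0.01 with all 6 libraries and -0.03 without the 2.

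A first pattern followed the treatment labels in all 6 libraries and consisted of striated muscle genes. Of 16 cardiac genes listed, 13 were abundant enough to test. HDM exceeded VEH in every library pair for 10 of these 13, where 4.47% of all genes did so. Above 0 were 12 of 13 differences, against 48.4% of all genes, and the median log2 difference was 2.91. The filter needs enough counts in as few as 3 of the 12 libraries, so a gene nearly absent from VEH could enter through its HDM level. The counts for this list and for the skeletal muscle and adipose lists below are therefore descriptions only. An unadjusted p below 0.05 was reached by 7 higher genes (1.92% of all genes) and by 1 lower (3.62% of all genes). The lower was Tnni1, the slow skeletal troponin I, which did not exceed 0.421 CPM in any library. Myl4 (chr11:104440903-104486603, GRCm39), an atrial myosin light chain, measured 3.08, 4.81 and 2.40 CPM in VEH replicates 1 to 3 and 11.4, 47.6 and 22.5 CPM in HDM replicates 1 to 3. Its lowest HDM value was more than its highest VEH value, and the log2 difference was 2.98 ± 0.57 (edgeR adjusted p = 0.801; 3.43 ± 0.72 without the 2, adjusted p = 0.087). Tnni3, the inhibitory subunit of cardiac troponin, had 1.85, 4.09 and 1.26 CPM in VEH and 7.91, 31.5 and 12.6 CPM in HDM, a log2 difference of 2.84 ± 0.62.

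The same libraries were ordered alike by other sarcomere genes. Myh6, the alpha myosin heavy chain of atrium and adult mouse heart, stood at 0.0411, 16.1 and 0.0842 CPM in VEH and at 69.8, 158 and 81.6 CPM in HDM. Ttn, encoding the giant spring protein titin, measured 0.657, 2.01 and 0.800 CPM in VEH and 3.89, 12.1 and 10.3 CPM in HDM. Mybpc3, cardiac myosin-binding protein C, reached at most 0.252 CPM in VEH and 1.47, 7.4 and 2.06 CPM in HDM. VEH replicate 2 had the most Myh6, Ttn and Mybpc3 of the VEH libraries, and HDM replicate 2 the most of all 6. Nppa, the atrial natriuretic peptide, was too rare to test but had 312 counts in HDM replicate 2 against 0 to 6 in the other 5 normal libraries. Actc1, cardiac alpha-actin, did not follow this order: 235 CPM in VEH replicate 1 and 234 CPM in HDM replicate 3 were its highest values.

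Among 12 skeletal muscle genes, 8 were tested, 7 had differences above 0 (48.4% of all genes), and 4 had HDM above VEH throughout (4.47% of all genes). Ckm, muscle creatine kinase, measured 0.575, 0.440 and 0.126 CPM in VEH and 1.47, 8.99 and 6.11 CPM in HDM, and Eno3, muscle enolase, 4.76, 4.44 and 4.13 against 8.44, 17.5 and 11.6 CPM. The fast fibre markers Myh4 and Pvalb had 0 counts in all 6 libraries, and Acta1, skeletal alpha-actin, did not exceed 0.252 CPM in any. Adipose genes were ordered similarly, with 7 of 10 tested, all 7 differences above 0 (48.4% of all genes), and 4 with HDM above VEH throughout (again 4.47% of all genes). Their summed CPM overlapped, however, at 58.6, 130 and 32.3 in VEH and 167, 108 and 72.5 in HDM. This list shares Fabp4 and Cidec with that of alveolar macrophages. Adipoq, the fat cell hormone adiponectin, lay below the floor of 3 counts in every VEH library and at 0.573, 3.85 and 1.25 CPM in HDM, at least 16.5-fold higher against that floor. Summed CPM of the tested cardiac genes was 289, 61.4 and 37.4 in VEH and 240, 508 and 490 in HDM, ranges that overlapped, Actc1 giving 235 of the 289 in VEH replicate 1. The lung itself holds cardiac-type muscle in the walls of its pulmonary veins, and heart and fat lie beside it in the chest; where the transcripts came from was not tested. As in any bulk sample, more cells of a type and more RNA per cell cannot be told apart.

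DESeq2's test used the same counts of the same 6 libraries, so its calls add no separate evidence. Its 11 genes called higher included Myl4, Tnni3, Ttn, Mybpc3 and Atp2a1, the fast-twitch calcium pump, from the cardiac and skeletal muscle lists. Outside those lists, those reported here were Casq2, the cardiac calcium store protein, Srl, a sarcoplasmic reticulum protein, and Kcnj5, an atrial potassium channel, beside Angel1 and 4932442E05Rik, all named here after their values were seen. In all 11 the HDM libraries lay above the VEH libraries, against 4.47% of all genes. Nothing is read from that share, since the genes were chosen by this difference. DESeq2's adjusted p was 0.000425 for Myl4, 0.00434 for Mybpc3 and 0.00681 for Tnni3, values that edgeR's test of the same counts did not reach.

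**Figure D2:**
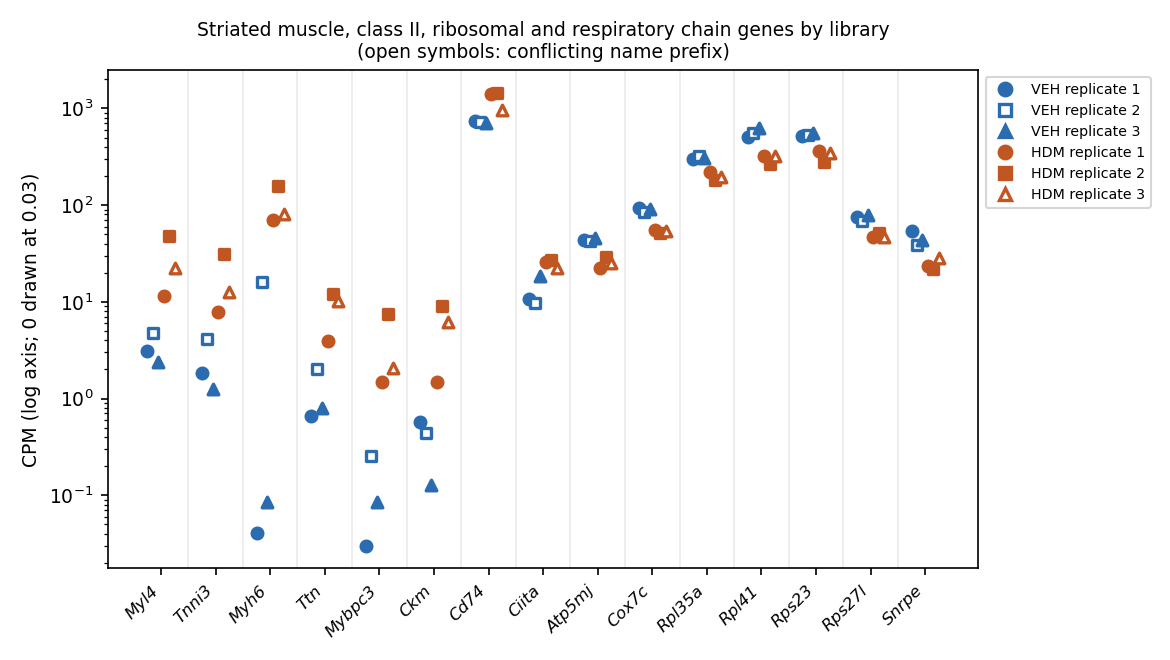
Normalised CPM of 15 genes in each of the 6 normal lung libraries, on a log axis with 0 drawn at 0.03; blue is VEH, orange is HDM, open symbols mark the 2 libraries of conflicting prefix. From Myl4 to Ckm and for Cd74 and Ciita the orange symbols lie above the blue, and from Atp5mj to Snrpe they lie below, in each case with the open symbols on the side of their label.

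Some genes of antigen presentation by MHC class II, though not all, also had higher levels in every HDM library. Cd74, the invariant chain that escorts class II molecules, measured 740, 725 and 702 CPM in VEH and 1418, 1446 and 955 CPM in HDM, a log2 difference of 0.82 ± 0.47 (0.99 ± 0.62 without the 2). Ciita, the master transcriptional activator of class II genes, had 10.8, 9.69 and 18.7 CPM in VEH and 25.6, 26.8 and 22.2 CPM in HDM, a log2 difference of 0.93 ± 0.42 (edgeR unadjusted p = 0.0497, adjusted p = 0.887). The beta chain genes H2-Ab1 and H2-Eb1 were also higher in every HDM library than in any VEH library, with log2 differences of 0.44 ± 0.40 and 0.60 ± 0.43. These 4 were the non-overlapping members of 14 tested dendritic cell and class II genes, where 4.47% of all genes had HDM above VEH, and the list's median was 0.44 (0.28 without the 2). The alpha chain gene H2-Aa overlapped by 1 library, 469 CPM in VEH replicate 1 against 448 CPM in HDM replicate 3. H2-DMa and H2-DMb1, which load peptides onto class II molecules, overlapped too, with log2 differences of 0.22 ± 0.21 and 0.23 ± 0.33. Dendritic cell markers showed no such order, with Clec9a at 22.9, 16.8 and 17.2 CPM in VEH and 17.4, 11.8 and 23.7 CPM in HDM, and Flt3 and Xcr1 overlapping as well.

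In the other direction, the components of the cytosolic ribosome were lower under HDM. All 79 listed ribosomal protein genes were tested: 78 had differences below 0, and 46 had all HDM libraries below all VEH libraries, where 5.85% of all genes did. Lower with an unadjusted p below 0.05 were 38, where 3.62% of all genes were. The median log2 difference was -0.43 with all 6 libraries and -0.29 without the 2, and ran from -0.38 to -0.43 over 3 ways of scaling the libraries. Rpl35a (chr16:32876630-32880559, GRCm39), a large subunit protein, measured 299, 320 and 307 CPM in VEH and 219, 181 and 194 CPM in HDM, a log2 difference of -0.64 ± 0.11 (edgeR adjusted p = 0.801; DESeq2 adjusted p = 2.52e-06). Rpl41, the smallest ribosomal protein, went from 506, 561 and 625 CPM to 318, 263 and 321 CPM, and Rps23, at the decoding centre, from 519, 536 and 562 CPM to 367, 280 and 347 CPM. In Rpl35a, Rpl41 and Rps23 every HDM library lay below every VEH library, by a gap wider than the spread inside each group. Others of the ribosome differed less: Rpl10 stood at 951, 895 and 712 CPM in VEH and 986, 802 and 723 CPM in HDM. Rps10 alone had a difference above 0, of 0.32. Processed copies of ribosomal protein genes elsewhere in the genome can share reads with them, so single genes of this family are uncertain.

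Nuclear genes of oxidative phosphorylation were lower too. Of 84 genes, 82 were tested, 76 had differences below 0, 38 were lower in all HDM libraries (5.85% of all genes), and the median was -0.28 (-0.32 without the 2). Atp5mj, a small ATP synthase subunit, measured 43.8, 42.4 and 45.5 CPM in VEH and 22.2, 29.4 and 24.9 CPM in HDM, a log2 difference of -0.78 ± 0.13, the smallest p of any lower gene named by the selection rule. Cox7c, a subunit of cytochrome c oxidase, measured 92.4, 85.3 and 91.2 CPM in VEH and 54.9, 51.7 and 54.5 CPM in HDM. Uqcrc1, a core subunit of complex III, stood at 137, 131 and 114 CPM in VEH and 134, 134 and 114 CPM in HDM, while Ndufs7, a core subunit of complex I, was lower in every HDM library (83.2, 70.2 and 73.5 CPM against 62.8, 59.0 and 66.4 CPM). The 6 genes above 0 included Cox6a2 and Cox7a1, the muscle forms of their subunits. Transcripts of the mitochondrial genome were also lower on average, with all 12 tested below 0 and a median of -0.74 (-1.34 without the 2), but here VEH replicate 2 and HDM replicate 3 crossed: mt-Co1 had 22064, 10433 and 14378 CPM in VEH and 9794, 7813 and 13497 CPM in HDM.

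Genes of shorter exon length tended to be lower in HDM. Length is that deposited per gene, not that of any one transcript. Among genes with a mean log2 CPM of at least 3, the median log2 difference was -0.16 for genes of 67 to 2678 bases, -0.06 for 2679 to 4421, 0.02 for 4422 to 6882 and 0.05 for 6883 to 123179 bases, bins of nearly equal gene number. Unadjusted p below 0.05 was reached by 300 lower and 16 higher genes in the shortest bin, and by 36 lower and 78 higher genes in the longest. DESeq2's 32 genes called lower had a median exon length of 1320 bases against 3360 bases over all genes tested. They held 8 of the 79 ribosomal and 3 of the 82 oxidative phosphorylation genes tested, where 43 of 20854 genes (0.206%) were called in either direction. The part of gene length or RNA integrity in their difference was not tested.

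The 24 genes with the smallest p among well expressed genes, 12 per direction, are described by their values, since their choice by p fixes that they follow the label. None of the 24 overlapped between the groups, against 10.3% of all genes without overlap, a share from which nothing is read. Nrp1, a co-receptor for semaphorins and VEGF on endothelium, measured 145, 88.5 and 132 CPM in VEH and 210, 203 and 165 CPM in HDM, a log2 difference of 0.66 ± 0.18. Jak3, the kinase of the common cytokine gamma chain, measured 22.5, 26.5 and 22.0 CPM in VEH and 47.0, 37.6 and 37.0 CPM in HDM, 0.78 ± 0.23. S1pr2, a sphingosine 1-phosphate receptor, had log2 difference 0.69 ± 0.20, and Gpam, which starts glycerolipid synthesis, 0.52 ± 0.15. Also higher were Tyw1, Zfyve26, Arhgef17, Pcnx3, Man2a2 and Zfp710, by 0.41 to 0.84. Lower beside ribosomal and respiratory genes were Tbca, a tubulin folding cofactor (69.6, 67.3 and 71.7 CPM against 42.9, 45 and 44.7 CPM), Tomm5, of the mitochondrial import pore, Snrpe, a core spliceosome protein, the nucleotide hydrolase gene Dnph1, and Gm10076. The edgeR adjusted p of these 24 ran from 0.801 to 0.864.

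Against that background the type 2 axis itself showed little that followed the label. Il33 (chr19:29902483-29938933, GRCm39), the alarmin released by damaged epithelium, measured 22.8, 140 and 90.6 CPM in VEH and 154, 252 and 35.8 CPM in HDM. The ranges overlapped, HDM replicate 3 lying below VEH replicate 3, and the log2 difference was 0.81 ± 0.70 with all 6 and 1.85 ± 0.64 without the 2 (edgeR adjusted p = 0.239). Tslp, the other main alarmin, did not exceed 2.71 CPM, and Il25 had 0 counts in all 6. The IL-33 receptor gene Il1rl1 had its maximum, 101 CPM, in VEH replicate 2, against 3.36 to 21.6 CPM in the other 5. Over the 7 alarmin and receptor genes tested the median was 0.00 (0.12 without the 2).

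Cytokines of the type 2 response were at the edge of detection. Il5 had 11 counts in VEH replicate 1 and 2 in HDM replicate 3, Il13 had 6 counts in HDM replicate 3, and both had 0 in the other libraries, where 3 counts are worth between 0.0944 and 0.126 CPM. Il9 had 0 counts throughout. Il4 was detected at 2.51, 0.818 and 1.94 CPM in VEH and 0.942, 1.40 and 1.62 CPM in HDM, although Kif3a lies opposite and the strand used in counting is not given in the sources used here. At this depth no difference in these cytokines was detectable. Of their signalling genes, Il4ra, the shared IL-4 and IL-13 receptor chain, measured 88.8, 170 and 77.3 CPM in VEH and 184, 132 and 91.3 CPM in HDM, and Stat6, its transcription factor, 104, 126 and 105 CPM against 136, 141 and 111 CPM. Both overlapped. Their log2 differences were 0.28 ± 0.31 and 0.21 ± 0.20 with all 6 libraries, and 0.93 ± 0.22 (edgeR adjusted p = 0.106) and 0.41 ± 0.23 without the 2. Areg, an epidermal growth factor made by type 2 lymphoid cells among others, was lower on average, at 4.93, 16.1 and 13.6 CPM against 5.53, 7.78 and 5.27 CPM (-0.90 ± 0.37, edgeR adjusted p = 0.887). It was the single gene of the 10 tested with an unadjusted p below 0.05, where 3.62% of all genes were lower at that level.

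Chemokines that draw eosinophils and Th2 cells behaved alike. None of 9 tested passed an unadjusted p of 0.05 or separated the groups, and the median was 0.22 (0.35 without the 2), running from -0.61 without HDM replicate 1 to 0.77 without VEH replicate 1. Ccl11, eotaxin, measured 9.69, 3.84 and 0.842 CPM in VEH and 9.22, 3.10 and 2.80 CPM in HDM, and Ccl17, a ligand of CCR4 on Th2 cells, 7.89, 3.71 and 3.96 CPM against 5.20, 8.0 and 6.48 CPM. Epx, eosinophil peroxidase, had 0 counts in all 6 libraries, and Ccr3, the eotaxin receptor, 4 counts each in HDM replicates 1 and 2. Prg2, eosinophil major basic protein, measured 0, 1.89 and 0 CPM in VEH and 4.22, 1.43 and 0.368 CPM in HDM. Of 10 tested mast cell, basophil and eosinophil genes, 7 had differences above 0 and 1 was lower in every HDM library, where 5.85% of all genes were. That 1 was Mcpt4, a connective tissue mast cell protease (2.92, 2.77 and 2.06 CPM in VEH, 0.983, 0.755 and 0.773 CPM in HDM). Its log2 difference was -1.62 ± 0.96 (edgeR unadjusted p = 0.121). Cpa3, which mast cells share with basophils, overlapped: 1.97, 0.535 and 1.14 CPM against 1.6, 1.21 and 2.76 CPM.

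A second pattern cut across the labels and was carried by macrophage and antibody genes. Chil3 (chr3:106054870-106074880, minus strand, GRCm39), the chitinase-like protein Ym1 of alternatively activated and alveolar macrophages, is described first. Its neighbour Chil4, or Ym2, is an allergy-induced paralogue whose coding sequence is 95.4% identical over 1194 aligned bases, with 55 differing bases and 12 bases in gaps. Exon 8 of each is shown because it holds 14 of these differences and shows on what the separation of their reads rests. Both stretches are 186 bases of the minus strand in GENCODE M39 (Chil3 chr3:106057028-106057213, Chil4 chr3:106110978-106111163, GRCm39), with differing bases in capitals.
Chil3: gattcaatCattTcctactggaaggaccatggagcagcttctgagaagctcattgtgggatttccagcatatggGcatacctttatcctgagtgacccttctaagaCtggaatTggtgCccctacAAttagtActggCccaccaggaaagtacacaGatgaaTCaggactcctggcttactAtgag
Chil4: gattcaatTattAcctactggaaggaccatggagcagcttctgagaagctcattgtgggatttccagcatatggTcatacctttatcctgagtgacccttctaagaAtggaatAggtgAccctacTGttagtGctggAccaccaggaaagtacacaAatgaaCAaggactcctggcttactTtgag
Across the coding sequence, every window of 150 bases, the read length, held at least 1 difference and the median window 6, so full-length reads could be told apart by sequence; how the authors treated reads that match several places is not given in the sources used here.

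Chil3 measured 95, 7313 and 203 CPM in VEH replicates 1 to 3 and 7705, 5271 and 75.3 CPM in HDM replicates 1 to 3. VEH replicate 2 lay with HDM replicates 1 and 2, HDM replicate 3 lay below all VEH libraries, and the log2 difference was 0.78 ± 1.66 with all 6 libraries, its 95% interval running from -2.90 to 4.46. Without the 2 libraries it was 5.45 ± 1.35 (edgeR adjusted p = 0.137). Chil4 reached at most 1.59 CPM. Per kilobase of the exon length deposited for each gene, Chil3 lay at 3230 to 4721 and Chil4 at 0.407 to 0.563 RPKM in the 3 high libraries. Splitting the libraries by their Chil3 level in place of their label would thus put 1 VEH library in the high set and 1 HDM library in the low set, namely the 2 of conflicting prefix.

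The 8 genes whose level was most like Chil3 over the 6 libraries (Pearson r of log2 CPM at or above 0.995 among 11940 genes, a description over 6 points that share depth and dissection) were Ccl6, Klhdc4, Ctsd, Cndp2, Slc15a3, Gm68467, 6530413G14Rik and Clec4n. Ccl6, a macrophage chemokine, measured 44.4, 1242 and 66.1 CPM in VEH and 1308, 1148 and 35.6 CPM in HDM. Ctsd, the lysosomal protease cathepsin D, measured 250, 1396 and 287 CPM in VEH and 1499, 1235 and 199 CPM in HDM. Every one of the 8 had its 3 high values in VEH replicate 2 and HDM replicates 1 and 2.

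Other alternatively activated macrophage genes divided. Mrc1, the mannose receptor, followed Chil3 (40.2, 216 and 30.1 CPM in VEH; 208, 170 and 28.7 CPM in HDM), as did Clec7a, the fungal glucan receptor Dectin-1 (18.2, 117 and 29.4 CPM; 181, 144 and 18.9 CPM). Retnla, or Fizz1, did not: 132, 79.8 and 201 CPM in VEH against 69.7, 493 and 69.1 CPM in HDM, highest in HDM replicate 2 alone. Arg1, arginase 1, was highest in VEH replicate 2 at 130 CPM, against 0.957 to 28.5 CPM elsewhere. Over the 9 tested genes of this group the median was 0.73 with all 6 libraries and 2.43 without the 2, and the 3 HDM libraries never separated from the 3 VEH libraries.

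Alveolar macrophage genes gave the same picture. Itgax, or CD11c, measured 20.4, 162 and 12.2 CPM in VEH and 231, 172 and 24.6 CPM in HDM. Atp6v0d2, a proton pump subunit of alveolar macrophages, measured 13.3, 221 and 13.9 CPM against 226, 169 and 7.99 CPM. Not all markers joined in: Car4 was highest in VEH replicate 1 at 151 CPM, and Marco, a scavenger receptor, lay at 1.80 CPM in HDM replicate 1. The median of 14 genes was 0.38 with all 6 libraries and 1.66 without the 2. For 16 monocyte and interstitial macrophage genes it was 0.47 and 1.00. The complement genes C1qa, C1qb and C1qc of interstitial macrophages had differences between -0.07 and 0.04 with all 6.

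Of the 39 genes that edgeR called without the 2 libraries, 1 belonged to a macrophage list, Cd68 of the monocyte and interstitial macrophage list, and none to any other list. Cd68 (chr11:69555037-69557067, GRCm39), a lysosomal marker of macrophages, measured 13.0 and 8.84 CPM in VEH replicates 1 and 3 and 176 and 141 CPM in HDM replicates 1 and 2. It rose by 3.87 ± 0.38 on the log2 scale in edgeR's 2 against 2 fit (edgeR adjusted p = 0.0165), while the 2 left-out libraries had 160 CPM (VEH replicate 2) and 16.5 CPM (HDM replicate 3). Ccl6, Tyrobp and Trem2, the last 2 being a myeloid signalling adaptor and its lipid-sensing receptor partner, also rose, by 4.48 ± 0.52, 2.53 ± 0.32 and 2.69 ± 0.35. Ctsz and Pla2g15, lysosomal enzymes, Tbxas1, thromboxane synthase, Ch25h, cholesterol 25-hydroxylase, and Ms4a6d were called higher as well. So was Fasn, fatty acid synthase, abundant in surfactant-making type 2 pneumocytes (121 and 211 CPM against 795 and 1124 CPM). In all 36 genes called higher, VEH replicate 2 lay above the other VEH libraries and HDM replicate 3 below the other HDM libraries. Nothing is read from this count: the share of all genes with that order is not given here. These genes were also called only when those 2 libraries were left out. B-cell receptor segments were 5 of the 39 called genes, where 0.172% of all genes were called, and the share of such segments among all genes is not given here. Of the 39, Zfyve26 was the only gene whose groups also did not overlap over all 6 libraries. The 3 genes that fell were Ssb, the La RNA-binding protein, Bysl, a ribosome assembly factor, and Slc25a37, the mitochondrial iron importer mitoferrin 1.

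**Figure D3:**
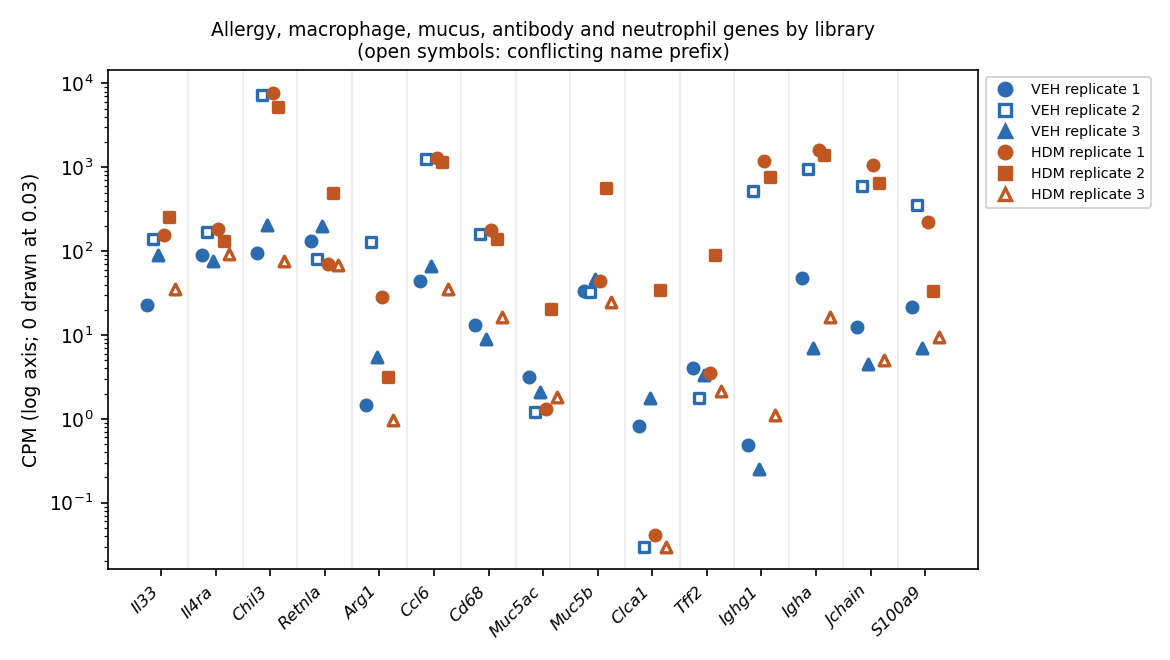
Normalised CPM of 15 allergy, macrophage, mucus, antibody and neutrophil genes in each normal lung library, on a log axis with 0 drawn at 0.03; blue is VEH, orange is HDM, open symbols mark the libraries of conflicting prefix. For Chil3, Ccl6, Cd68, Ighg1, Igha and Jchain the open blue symbol lies with the filled orange ones and the open orange symbol with the filled blue, and the mucus genes are high in HDM replicate 2 alone.

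Antibody genes also ranged widely across the labels. Ighg1, the constant region of IgG1 and the class most raised by type 2 help in mice, measured 0.493, 527 and 0.253 CPM in VEH and 1202, 775 and 1.10 CPM in HDM. Igha, of mucosal IgA, measured 47.7, 958 and 6.95 CPM against 1597, 1389 and 16.4 CPM, and Jchain, which joins IgA and IgM multimers, 12.5, 592 and 4.46 CPM against 1076, 646 and 5.01 CPM. In each of these the 3 high libraries were VEH replicate 2 and HDM replicates 1 and 2, and every one of them exceeded the other 3. The log2 difference of Ighg1 was 1.90 ± 2.29 with all 6 libraries and 11.35 ± 1.88 without the 2 (edgeR adjusted p = 0.0634). Ighe, of IgE, was too rare to test and had 32 counts in VEH replicate 2, 24 and 7 in HDM replicates 1 and 2, and 0 in the other 3.

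Genes of B cells before antibody secretion varied much less. Cd79b, of the B-cell receptor, measured 15.2, 22.2 and 11.6 CPM in VEH and 33.7, 26.1 and 19.8 CPM in HDM. Fcer2a, the low-affinity IgE receptor CD23, had 2.46, 5.54 and 2.11 CPM against 9.01, 14.9 and 3.65 CPM, a log2 difference of 1.44 ± 0.62 (edgeR unadjusted p = 0.0412, adjusted p = 0.887). Of 20 tested B-cell and plasma cell genes, 19 had differences above 0, 1 of them non-overlapping, near the 4.47% of all genes, and the median was 1.09. Without the 2 it was 1.67, and 12 were higher at an unadjusted p below 0.05, where 8.65% of all genes were, but none reached the adjusted threshold. T-cell and NK-cell genes were low throughout, with Cd3e at 1.57 to 2.34 CPM in VEH and 2.5 to 6.31 CPM in HDM, and a median of 0.57 over 20 genes, 3 of them with HDM above VEH throughout (4.47% of all genes). Foxp3, of regulatory T cells, measured 12.3, 9.88 and 9.60 CPM against 8.64, 6.27 and 11.3 CPM. In VEH these values exceeded the whole range of Cd3e, so they are not read as a level of regulatory T cells. The source of the Foxp3 reads was not tested.

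Neutrophil genes were high in VEH replicate 2 and HDM replicate 1. S100a9, a calprotectin subunit, measured 21.4, 356 and 7.07 CPM in VEH and 225, 33.5 and 9.39 CPM in HDM, and Cxcr2, the neutrophil chemokine receptor, 2.55, 44.7 and 0.842 CPM against 49.7, 7.25 and 1.18 CPM. Over 16 genes the median difference was -0.45 with all 6 libraries and 3.29 without the 2, so its sign turned on those libraries.

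Mucus and goblet cell genes were high in a single library. Muc5b (chr7:141392807-141426821), the resident airway mucin, measured 33.6, 32.6 and 46.1 CPM in VEH and 44.4, 564 and 24.9 CPM in HDM, and Muc5ac, the mucin induced in allergic airways, 3.12, 1.20 and 2.11 CPM against 1.31, 20.2 and 1.80 CPM. Clca1, secreted by goblet cells, reached 34.4 CPM and Tff2, a trefoil factor, 89.8 CPM in HDM replicate 2, with at most 1.77 and 4.02 CPM in the other 5. HDM replicate 2 thus stood apart from HDM replicates 1 and 3 as much as from VEH. Itln1, an intelectin induced by IL-13, had 0 counts in all VEH libraries and 3.25 CPM in HDM replicate 2. Its HDM group mean was at least 9.92-fold higher against the floor of 3 counts, but rested almost wholly on HDM replicate 2. The median over 12 genes was 2.36 with all 6 libraries and 3.44 without the 2, but was -0.11 without HDM replicate 2.

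Submucosal and defence genes of larger airways peaked in that library too. Scgb3a1, a secretoglobin of proximal airways, measured 38.6, 105 and 55.4 CPM in VEH and 69.1, 1268 and 6.04 CPM in HDM. Bpifb1, Reg3g and Ltf, antimicrobial proteins of airway secretions, reached 489, 278 and 409 CPM there, against at most 24.1, 5.85 and 37.6 CPM in the other 5 libraries. Slc26a4, the anion exchanger pendrin, differed in its order, with 0.329, 21.4 and 0.926 CPM in VEH and 38.9, 65.3 and 2.25 CPM in HDM. Club and ciliated cell genes did not peak in HDM replicate 2: Scgb1a1 measured 97559, 23837 and 78318 CPM in VEH and 21507, 50964 and 53358 CPM in HDM, and Foxj1, the ciliated cell regulator, 366, 136 and 367 CPM against 90.2, 319 and 245 CPM. Both were lowest in HDM replicate 1 and VEH replicate 2, and the 17 tested airway genes had a median of -0.28 (-0.69 without the 2). The share of large airway in each 1 mg piece was not measured.

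Of 16 alveolar epithelial genes, 12 had differences above 0, against 48.4% of all genes. HDM lay above VEH throughout for 1 of them, near the 4.47% of all genes. Abca3, the lipid pump of surfactant lamellar bodies, measured 289, 430 and 354 CPM in VEH and 624, 802 and 432 CPM in HDM, without overlap (0.79 ± 0.28 with all 6 and 1.15 ± 0.30 without the 2, edgeR adjusted p = 0.887 and 0.132). Etv5, a transcription factor that maintains type 2 pneumocytes, measured 42.5, 124 and 76.4 CPM against 237, 163 and 105 CPM. These were the 2 of 16 alveolar genes with an edgeR unadjusted p below 0.05, where 1.92% of all genes were higher at that level. Sftpc itself measured 8497, 21697 and 21129 CPM in VEH and 25182, 21182 and 15192 CPM in HDM, and Ager, of type 1 pneumocytes, 1391, 2394 and 3132 CPM against 2186, 2374 and 1908 CPM. The median of the list was 0.32 (0.59 without the 2, and 0.13 without VEH replicate 1).

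VEH replicate 2 differed from the other VEH libraries in further genes. Saa3, an acute phase serum amyloid, measured 3.70, 2048 and 2.06 CPM in VEH and 249, 7.85 and 1.33 CPM in HDM, and C3, the central complement protein, 481, 6017 and 1014 CPM against 1866, 1865 and 530 CPM. Proliferation genes were also highest there, with Top2a at 10.6, 52.2 and 9.09 CPM in VEH and 10.8, 8.61 and 16.7 CPM in HDM. Of 20 cell cycle genes all had differences below 0, against 11426 of 22190 genes, and 5 had an unadjusted p below 0.05, where 3.62% of all genes were lower at that level. Their median was -0.70, which became 0.01 without VEH replicate 2. Dkk2, a Wnt antagonist taken from earlier results of these data as a gene highest in the tumours, measured 5.42, 104 and 4.29 CPM in VEH and 8.85, 1.13 and 6.48 CPM in HDM. Nxf3 and Rhox2g, from the same source, reached 4.09 and 1.95 CPM in VEH replicate 2 and at most 0.331 CPM elsewhere. Summed CPM of the 6 tumour-high genes was 114 in VEH replicate 2 and 1.55 to 13.5 in the other 5 libraries, and the part of tumour tissue in the results that rest on this library was not tested.

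Structural cell types varied between libraries without following the label. Smooth muscle genes were high in the 2 libraries with suffix H1: Acta2, smooth muscle actin, measured 523 CPM in VEH replicate 1 and 514 CPM in HDM replicate 3, and Myh11, smooth muscle myosin, 366 and 401 CPM there against 24.6 to 92.7 CPM in the other 4. Mesothelial genes were nearly absent from VEH replicate 1, with Upk3b at 0.904 CPM against 36.8 to 224 CPM in the other 5. Endothelial genes had a median difference of 0.19 over 15 genes, -0.15 without the 2 and -0.07 without VEH replicate 2. Fibroblast and matrix genes had a median of -0.06 over 18, and interferon response genes of -0.18 over 18, with 14 below 0. Clock genes and red blood cell genes both had a median of -0.10. Among immediate early genes, which respond within minutes to handling, Egr1 measured 151, 66.2 and 10.5 CPM in VEH and 18.3, 11.0 and 124 CPM in HDM, and was highest in the same H1 libraries.

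**Figure D4:**
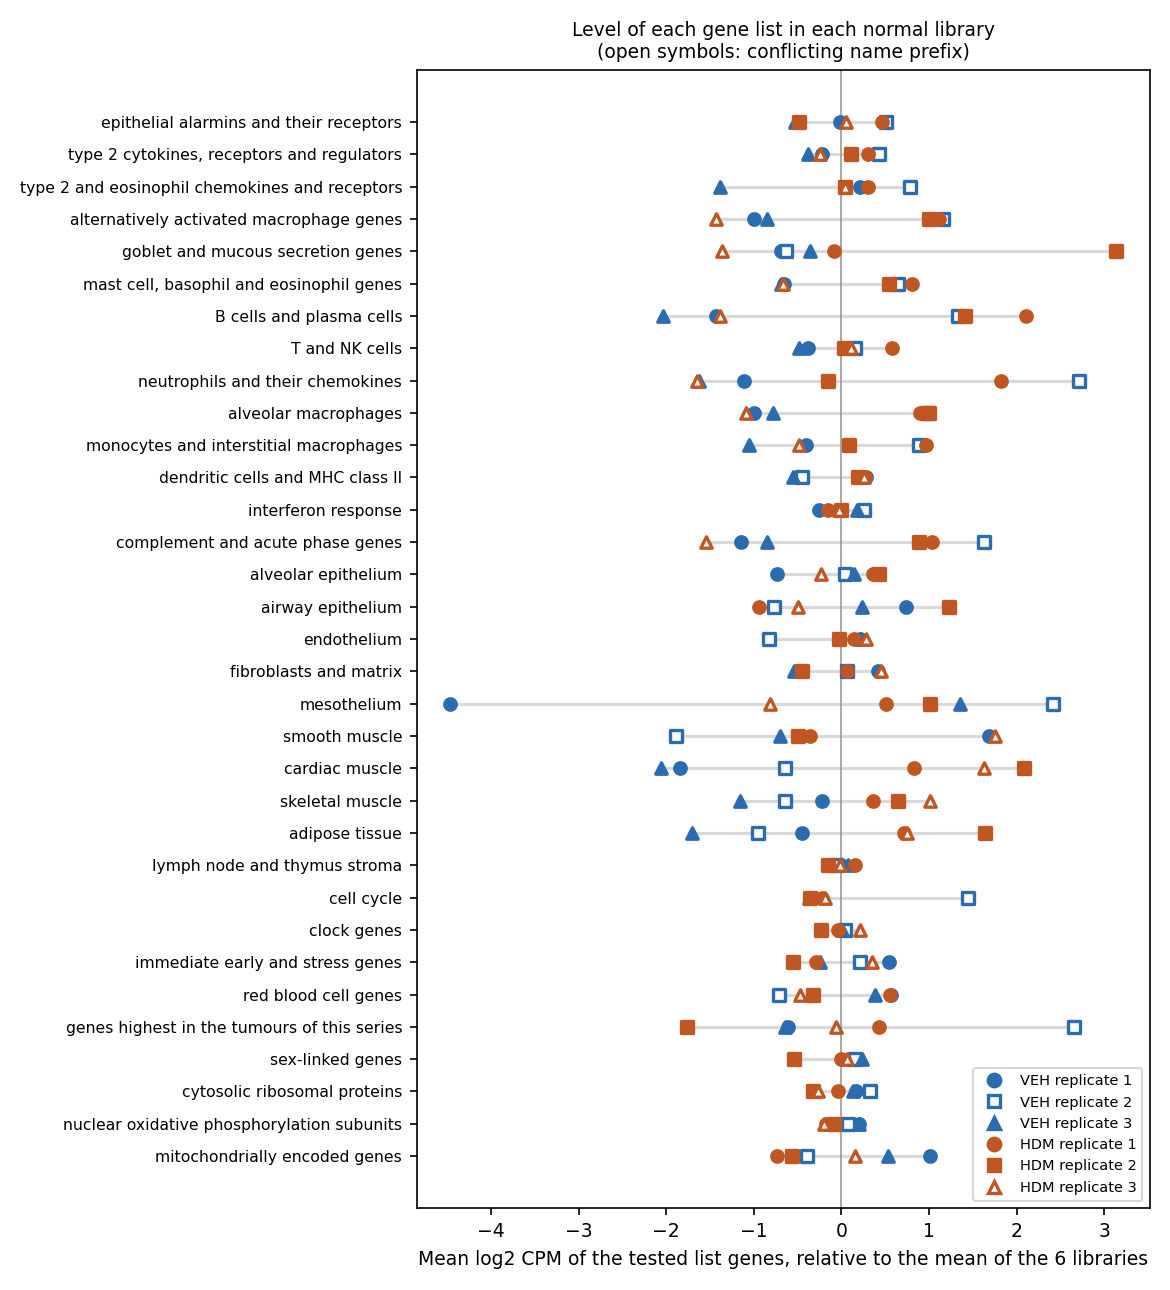
Mean log2 CPM of the tested genes of each list in each normal lung library, relative to the mean of the 6 libraries; blue is VEH, orange is HDM, and open symbols mark the libraries of conflicting prefix. Cardiac, skeletal muscle and adipose lists have all orange symbols to the right of all blue, ribosomal and oxidative phosphorylation lists to the left, while macrophage and B-cell lists place the open symbols with the other treatment and the goblet list has HDM replicate 2 alone at the right.

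Leaving out the 2 libraries kept the sign of the lists that followed the label and turned that of several others. Lists whose HDM and VEH library levels did not overlap could hardly turn, so their kept sign adds no evidence of stability. Cardiac muscle went from a median of 2.91 to 3.45, ribosomal proteins from -0.43 to -0.29, and oxidative phosphorylation from -0.28 to -0.32. Neutrophil, complement and tumour-high lists changed sign, from -0.45 to 3.29, from -0.13 to 1.77 and from -1.91 to 1.10. Mesothelial and smooth muscle lists changed sign as well, from -1.08 to 0.42 and from 0.26 to -1.16, and the endothelial list from 0.19 to -0.15. Leaving out VEH replicate 1 alone turned the airway median to 0.10 and the fibroblast median to 0.18, and leaving out HDM replicate 1 turned the alarmin median to -0.23.

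**Figure D5:**
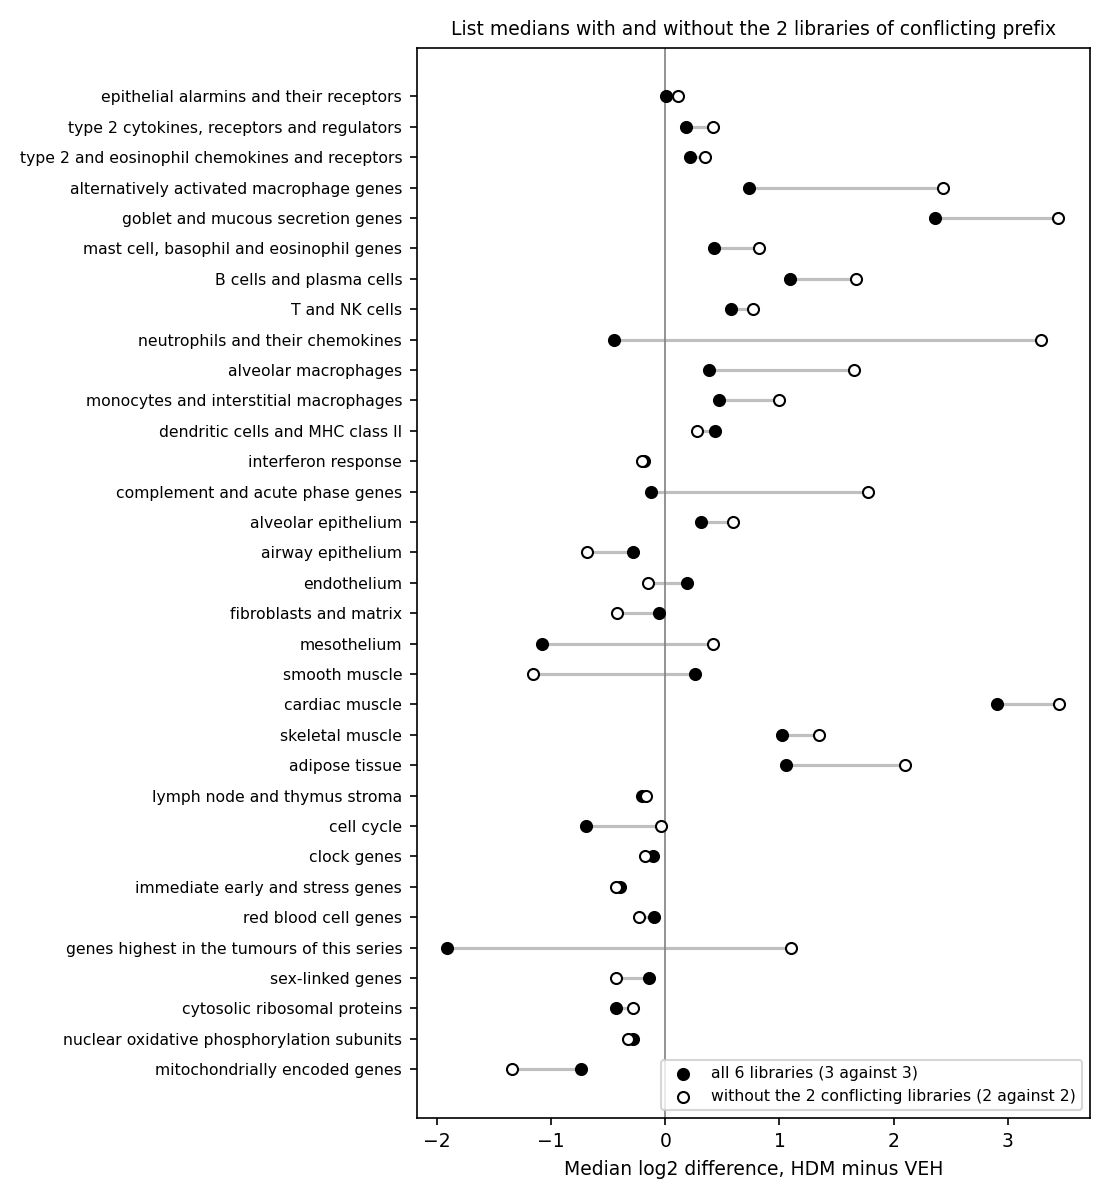
Median log2 difference, HDM minus VEH, of each gene list with all 6 normal libraries (filled) and without the 2 of conflicting prefix (open). The points nearly coincide for ribosomal, oxidative phosphorylation and interferon genes and lie apart for neutrophil, macrophage, complement, smooth muscle and tumour-high genes.

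The effect of HDM in lung was also set against that in tumours. The interaction of treatment with tissue, tested by edgeR over all 12 libraries, called 0 genes, with a smallest adjusted p of 0.286 and 2084 genes at an unadjusted p below 0.05. That fit did not use the shared name codes of lung and tumour libraries and was not repeated without the libraries of doubtful treatment, so it shows neither a difference nor a likeness between the tissues.

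Several named genes overlap a gene on the opposite strand. They include Myl4 (Cdc27), Myh6 (Mhrt), Ciita (Dexi), Jak3 (B3gnt3), Rpl35a (Iqcg), Rps23 (Gm60033), Clec9a (Clec1a), Cpa3 (Gm31320), Abca3 (D330041H03Rik), Gm10076 (Gm63444), Nrp1 (Gm64234), S1pr2 (Mrpl4), Zfp710 (Idh2), Atp6v0d2 (Gm68467) and H2-Aa with H2-Eb1. The libraries were made by a method that keeps the strand, but the strand setting of the counting is not given in the sources used here, so reads of such pairs may not be told apart.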

How the data were processed

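RNA from 12 mouse libraries, 6 of them normal adjacent lung, was sequenced as stranded paired reads of 150 bases. The deposited table holds raw read counts per gene for each library. Per the submitters' processing notes, which give no versions or settings, the tools were Trim Galore, STAR, featureCounts and Subread and the build was mm39. Even counts made up 68.2% to 72.0% of values from 1 to 20 and 50.6% to 56.1% of values above 1000, and whether the authors counted reads or read pairs is not given in the sources used here; counts as deposited went into the tests. The labels name either poly(A) selection or ribosomal RNA depletion.

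Of 78298 gene identifiers, 78168 were matched to GENCODE M39 on GRCm39 for names, lengths and coordinates. Genes were kept by filterByExpr with a minimum count of 10, scaled by TMM and tested with edgeR 4.0.16 (R 4.3.3; robust quasi-likelihood F-test, Benjamini-Hochberg over 22190 genes), all 12 libraries in 4 groups giving the spread. CPM uses the TMM-scaled library size, and log2 CPM a prior count of 2. The second fit left out VEH replicate 2 and HDM replicate 3. DESeq2 1.42.0, limma 3.58.1 and other settings were alternatives. The code was tested on simulated data.

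The members and the 33 gene lists were chosen with earlier results of these data known. Named genes were list members, up to 12 per direction with the smallest p, genes called without the 2 libraries, the 10 of widest spread and the 8 most like Chil3. Some results are not reported here.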

Additional observations from a re-analysis of the deposited data

How the results depend on the processing

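With all 6 normal libraries, edgeR called 0 genes under every alternative that kept at least 5 of them, and DESeq2 called 43. Genes at an unadjusted p below 0.05, 1230 in the reported fit, were 2544 with limma-voom and 741 to 2127 when a single library was left out, most without VEH replicate 2 and fewest without HDM replicate 2. Same-numbered replicates correlated at -0.36, 0.09 and 0.28 in their deviations, so the numbers were not taken to pair libraries. The replicate block called 0 genes, with 1028 at an unadjusted p below 0.05 over all 12 libraries and 554 over the normal ones. Suffix H1 or H2 as a covariate, and the 4 H2 libraries alone, alternatives chosen after seeing the data, called 0 genes.

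Without the 2 libraries of conflicting prefix, 39 genes were called and 3375 had an unadjusted p below 0.05, and 222 and 3616 when only normal libraries were fitted, also chosen after seeing the data. For that reduced set, other settings called 17 (DESeq2 size factors), 84 (library size only), 416 (no filter), 163 (10 counts in every library), 1057 (DESeq2), 341 (limma-voom) and 10 (replicate block). Leaving out 1 more library gave 1 to 24 calls, the lone sample of an arm being assumed to vary like the other groups. The cause of these differences was not tested.

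All 24 genes named for the smallest p kept their sign in all 19 settings. Their choice by p and their lack of overlap largely fixed this, so nothing is read from it. Of the 590 genes described, 354 kept their sign in every setting. Goblet and lymph node lists gave no value with 10 counts required in every library. Small pieces, 3 libraries per group and 2 libraries of uncertain treatment limit every result.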

Other observations

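Among genes with a mean log2 CPM of at least 5 over the normal libraries, the 10 of widest spread were Scgb3a1, Gm68839, Jchain, Upk3b, Msln, Atp6v0d2, Chil3, Actc1, S100a9 and Ccl6. Gm68839 lies opposite Igkc, the kappa light chain constant gene, which measured 32.9, 1210 and 19.7 CPM in VEH and 2862, 1542 and 32.8 CPM in HDM. Msln, the mesothelial surface protein mesothelin, measured 3.94, 448 and 187 CPM in VEH and 96.1, 191 and 27.8 CPM in HDM. Lcn2, an iron-binding acute phase protein, measured 31.1, 510 and 65.3 CPM in VEH and 751, 947 and 40.3 CPM in HDM, high in the same 3 libraries as Chil3.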
